A study of Mus musculus with 12 samples.

Results

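Heme synthesis and primitive erythroid genes were examined in ribosome profiling and RNA-seq of E8.5 mouse embryos. The set lists 34 genes by name: 8 enzymes of heme synthesis, 4 mitochondrial carriers, 10 proteins of the red cell membrane and its skeleton, 5 transcription factors and 7 further red cell genes that include the erythropoietin receptor. Of these, 33 were matched to a row among the 22467 transcripts of the table, and the other 1 is not analysed here. The embryos were 3 wild type (Rpl10a +/+, here WT) and 3 homozygous for a loss-of-function allele of the ribosomal protein gene Rpl10a (LOF/LOF), all on a C57BL/6 background. The allele deletes intron sequence, so that RPL10A is made with an N-terminal extension, and it acts in every cell of the embryo. Each library came from 1 whole embryo, each embryo gave 1 library of ribosome-protected fragments (RPF) and 1 RNA library, and all embryos were lysed in cycloheximide. Sex was not among the labels, and whether yolk sac stayed on the embryos is not given in the sources used here.

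Heme is built in a relay between mitochondria and cytosol that opens with 5-aminolevulinate synthase and ends when ferrochelatase inserts iron into protoporphyrin. Vertebrates carry a housekeeping synthase, Alas1, and a red cell synthase, Alas2, whose mRNA has in its 5'UTR a hairpin, the iron-responsive element, that iron regulatory proteins bind when iron is scarce. Primitive erythroid cells arise in the blood islands of the yolk sac, make embryonic globins, and depend on the transcription factors Gata1 and Klf1, which activate many of the genes described here. At E8.5 these cells are a small part of a whole embryo, and a bulk library cannot tell fewer cells of a type from less RNA per cell.

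Sequence elements of some central genes are shown first, and whether they have a part in the differences described below was not tested. The iron-responsive element of Alas2 is in exon 1 of its counted transcript, in the 5'UTR, at chrX:150547457-150547482 of GRCm38 on the plus strand. It is bases 83 to 108 of the transcript and ends 18 bases before the start codon. In the DNA letters of the transcript below, capitals mark the bulged C and the CAGTG of the loop.
Alas2 iron-responsive element: tttggttCgtcctCAGTGcagggcaa
The pattern of a C, any 5 bases and CAGTG, read on the sense strand, is not specific to such hairpins: among the 12262 transcripts tested whose 5'UTR had 11 nt or more, 7.98% held it. Among 31 such members it was in 6, which were Alas2, Epb41, Epb42, Gata1, Gfi1b and Gypc, and folding was not examined.

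RefSeq start sites of GRCm38.p6 gave 31 promoters, of 26 members, that could be used here. In the 150 bases before the start, 11 of the 31 promoters held a GATA motif (GATA after an A or a T and before an A or a G, on either strand), against 16.0% of all 32851 promoters. A CACCC-type box (CCNCNCCC on either strand), the kind of site that Klf1 and its relatives bind, was in 18 of the 31, against 38.1% of all promoters, and 5 of the 31 held both in 1 promoter, against 3.44%. Matches of the CACCC-type box can overlap one another, and a box and a GATA motif can share at most 1 base. Alas2, Klf1 and Rhag are shown because they were called in RPF and hold a GATA motif, and Gata1 because it holds 3 CACCC-type boxes and no GATA motif in this window. Of the other members called in RPF, Epb42 held neither motif, and no promoter of Slc4a1, Ank1 or Car2 was among those searched. Alas2 also holds 4 CACCC-type matches, which begin 42 to 26 bases before the RefSeq start and lie within the counted transcript, outside the stretch shown. Motif matches are in capitals, and each stretch stops where the counted transcript begins.
Alas2, chrX:150547267-150547374, plus strand: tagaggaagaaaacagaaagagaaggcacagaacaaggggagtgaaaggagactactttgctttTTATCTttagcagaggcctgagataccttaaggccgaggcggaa
Klf1, chr8:84901832-84901927, plus strand: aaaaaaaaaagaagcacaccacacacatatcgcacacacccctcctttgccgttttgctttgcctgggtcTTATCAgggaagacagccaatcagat
Rhag, chr17:40810999-40811125, plus strand: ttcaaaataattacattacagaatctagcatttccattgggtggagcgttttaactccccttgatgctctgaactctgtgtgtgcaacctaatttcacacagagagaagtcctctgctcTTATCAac
Gata1, chrX:7967911-7968060, minus strand: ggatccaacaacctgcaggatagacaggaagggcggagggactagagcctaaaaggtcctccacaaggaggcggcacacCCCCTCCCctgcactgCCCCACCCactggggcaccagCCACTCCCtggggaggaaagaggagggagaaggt
The matches are descriptions of the letters and not of binding.

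RPF libraries held 7041357 to 10863499 counts and RNA libraries 9132521 to 26561843. Rpl10a itself was lower in LOF/LOF, with RPF levels of 940 to 1125 CPM (counts scaled to library size by TMM) against 1561.5 to 1678.5 in WT, and RNA levels of 695 to 753 CPM against 789 to 870. Reads of 4 Y-linked genes were at 153 to 189 CPM in WT 1, 2 and 3 and in LOF/LOF 2, but at no more than 9.33 CPM in LOF/LOF 1 and 3, so genotype and sex overlapped only in part. Of the red cells, the embryonic globins (Hba-x, Hbb-bh1 and Hbb-y) summed to 819.9 to 5679.5 CPM in RPF and 379 to 2455 CPM in RNA, while 4 adult globins, which share near-identical copies, summed to 1.37 to 7.91 and 73.8 to 311 CPM. The embryonic globins, which primitive erythroid cells make, thus exceeded these adult globins in every library, by less in RNA than in RPF.

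Of the 33 genes, 32 passed the filter, which kept a transcript above 0.75 CPM in 3 or more of the RPF libraries. In RPF, 7 of them were called higher in LOF/LOF (FDR below 0.1 over all 12576 transcripts) and 0 lower, where 1.05% of all transcripts were called higher and 1.15% lower. In RNA, 5 were called higher and 0 lower, where 1.77% and 3.25% of all transcripts were. Alas2, Slc4a1 and Ank1 were called in both, Car2, Epb42, Klf1 and Rhag in RPF only, and Alad and Slc25a37 in RNA only. With DESeq2, Slc4a1 and Ank1 were not called in RPF, Alas2, Slc4a1, Ank1 and Slc25a37 were not called in RNA, and Gata1 was the 1 member called in both. With surrogate variables, 23 members were called in RPF, where 640 of all transcripts were called higher, and 2 in RNA (Alas2 and Slc4a1), so that Alad, Slc25a37 and Ank1 lost their RNA calls, as they also did with a replicate block. The median log2 fold change of the 32 was 0.68 in RPF and 0.64 in RNA, beside 0.00 and -0.00 over all transcripts, and 29 and 30 of the 32 had a positive value. Every LOF/LOF embryo was above every WT embryo for 14 of the 32 in RPF and 11 in RNA, beside 9.92% and 10.2% of all transcripts. The 32 include Kel, Icam4 and Trim10, for which WT 3 alone among WT exceeded 0.75 CPM in RPF. These passed the filter through LOF/LOF embryos, so their positive RPF changes, and the place of Trim10 among the 14, partly follow from the filter. The number of calls depended on which embryos were included. Leaving out WT 1 or WT 2 left 0 members called in either library kind, leaving out LOF/LOF 3 left 1 in RPF (Car2) and 0 in RNA, leaving out LOF/LOF 2 left 8 and 0, leaving out LOF/LOF 1 left 3 and 4, and leaving out WT 3 gave 13 in RPF and 19 in RNA. The calls over all transcripts moved as well. In RPF, where 132 of the 12576 were called higher with all embryos, there were 10 without WT 1, 4 without WT 2, 67 without WT 3, 112 without LOF/LOF 1, 637 without LOF/LOF 2 and 26 without LOF/LOF 3. In RNA, where 222 were called higher, the same fits gave 52, 252, 193, 190, 149 and 124. The median log2 fold change of the members stayed at 0.62 in RPF without WT 1 and at 0.52 without WT 2. With a covariate for the Y-linked reads, 1 member (Car2) was called in RPF and 0 in RNA, where 18 and 22 of all transcripts were called higher, and the medians were 0.93 and 0.84.

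**Figure D1:**
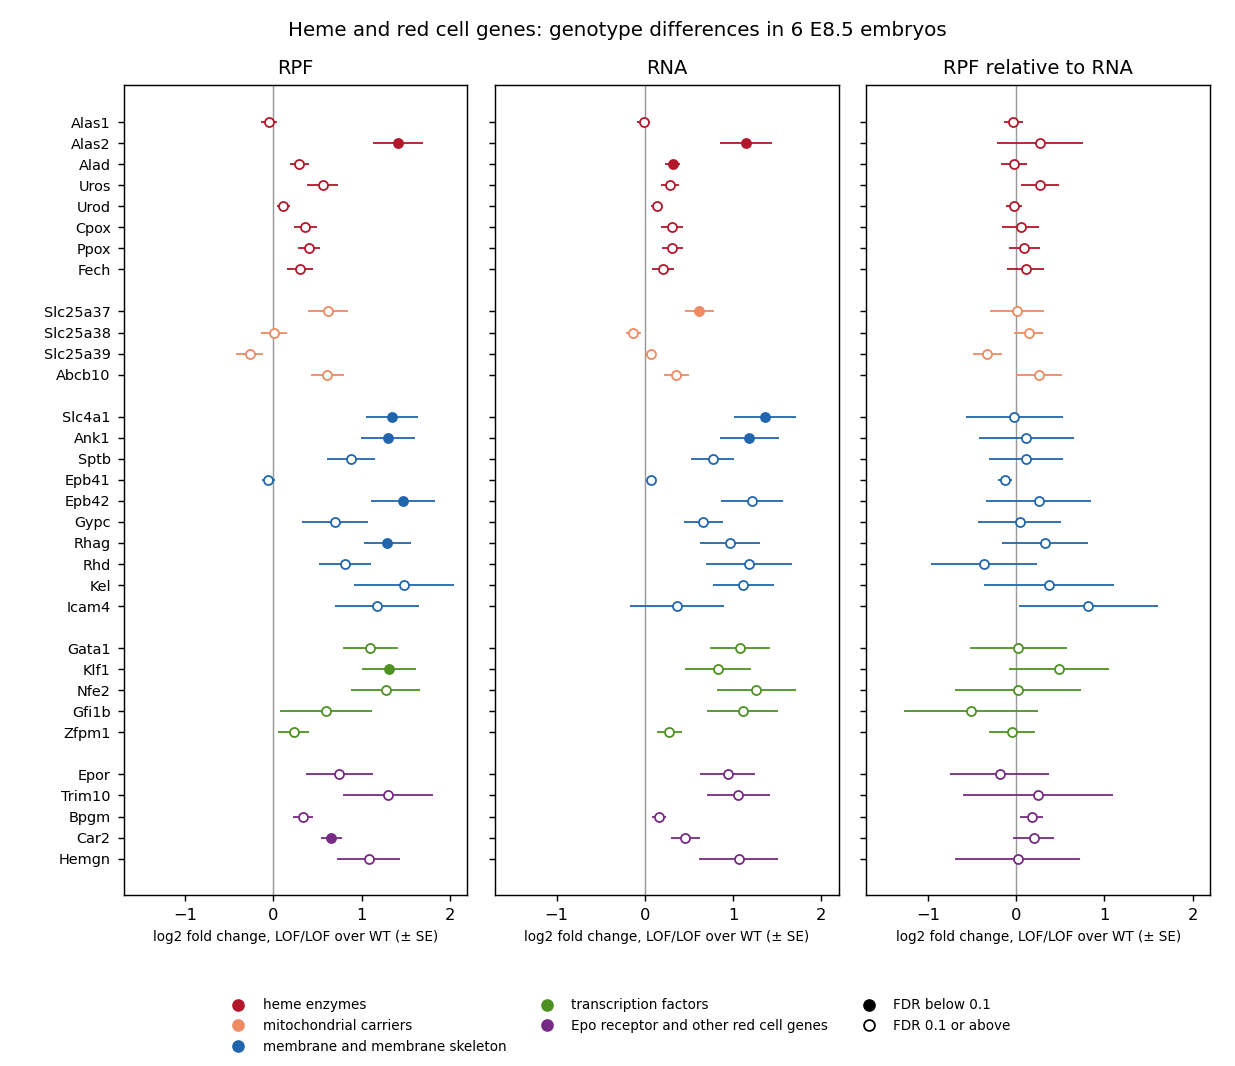
Log2 fold change of LOF/LOF over WT, with its standard error (bars), for the 32 genes tested, in RPF, in RNA and in RPF relative to RNA; colors are gene groups and filled symbols have an FDR below 0.1. Filled symbols number 7 in RPF, 5 in RNA and 0 in RPF relative to RNA, and Alas1, Urod and Epb41 sit near 0.

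The synthases of the opening step behaved differently from each other. Alas2 (chromosome X from 150547375 to 150570638, plus strand, 11 exons) had RPF levels of 12.4, 9.48 and 26.4 CPM in WT 1, 2 and 3 and of 37.7, 52.2 and 39.0 CPM in LOF/LOF 1, 2 and 3. Its RNA levels were 11.3, 12.9 and 29.1 CPM in WT and 31.6, 41.8 and 48.9 CPM in LOF/LOF. WT 3 stood well above the other WT embryos, but no LOF/LOF embryo fell into the WT range in either kind of library. The log2 fold change was 1.41 ± 0.29 (SE, n = 3 embryos per genotype) in RPF, with an FDR of 0.0563, and 1.15 ± 0.30 in RNA, with an FDR of 0.0776 (edgeR, Benjamini-Hochberg).

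Alas1 (chromosome 9 from 106233458 to 106248654, minus strand, 11 exons) had RPF levels of 58.3, 62.5 and 55.1 CPM in WT and of 53.1, 54.6 and 61.8 CPM in LOF/LOF. Its RNA levels ran only from 26.2 to 28.2 CPM over the 6 embryos. The groups overlapped, with a log2 fold change of -0.05 ± 0.09 in RPF and -0.01 ± 0.07 in RNA. Within each library, and so free of any scaling between libraries, Alas2 gave 21.3, 15.2 and 47.8 RPF reads per 100 Alas1 reads in WT and 71.2, 95.7 and 63.1 in LOF/LOF. The same ratio in RNA was 43.1, 45.8 and 109.6 in WT and 119.6, 158.1 and 176.7 in LOF/LOF, so that the groups did not overlap in either.

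The enzymes after the synthase differed less. Alad, which joins aminolevulinate into porphobilinogen (chromosome 4 from 62509169 to 62519918), had RNA levels of 43.1, 40.9 and 50.2 CPM in WT and 52.6, 59.4 and 55.4 CPM in LOF/LOF, a log2 fold change of 0.32 ± 0.08 with an FDR of 0.0838. Its RPF levels were 77.6, 71.6 and 86.4 CPM in WT and 91.7, 111.4 and 86.3 CPM in LOF/LOF, where LOF/LOF 3 lay just inside the WT range. The RPF change of 0.29 ± 0.11 had an FDR of 0.245. Urod, which decarboxylates uroporphyrinogen (chromosome 4 from 116989965 to 116994413), had RPF levels of 113.3, 119.7 and 121.4 CPM in WT and 137.9, 122.2 and 122.9 CPM in LOF/LOF, and RNA levels of 41.5 to 46.7 and 46.6 to 49.1 CPM. Its log2 fold changes of 0.11 ± 0.07 and 0.13 ± 0.07 were not called.

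Uros, Cpox, Ppox and Fech, which close the ring, oxidize it and insert the iron, had RPF log2 fold changes of 0.56 ± 0.17, 0.36 ± 0.13, 0.40 ± 0.13 and 0.31 ± 0.15, and RNA values of 0.29 ± 0.10, 0.31 ± 0.12, 0.31 ± 0.12 and 0.20 ± 0.12. None of these 4 was called in either. All 4 and Alad were called in RPF with 2 surrogate variables, a fit that called 640 of all 12576 transcripts higher, against 132 without them. Of the 8 enzymes, then, 1 was called higher in RPF (Alas2) and 2 in RNA (Alas2 and Alad), where 1.05% and 1.77% of all transcripts were. A positive fold change was seen for 7 of 8 in each. Tested apart from the members, 14 other genes of the heme pathway, among them heme exporters, heme oxygenases and the transferrin receptor gene Tfrc, held 0 called genes in RPF. In RNA they held 1 gene called higher, where 1.77% of all transcripts were. That gene was Steap3, a ferrireductase of erythroid endosomes, at 2.88 ± 0.97 CPM (SD, n = 3) in WT and 5.65 ± 1.07 in LOF/LOF, with an FDR of 0.0716. The median RPF log2 fold change of those 14 genes was 0.14.

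**Figure D2:**
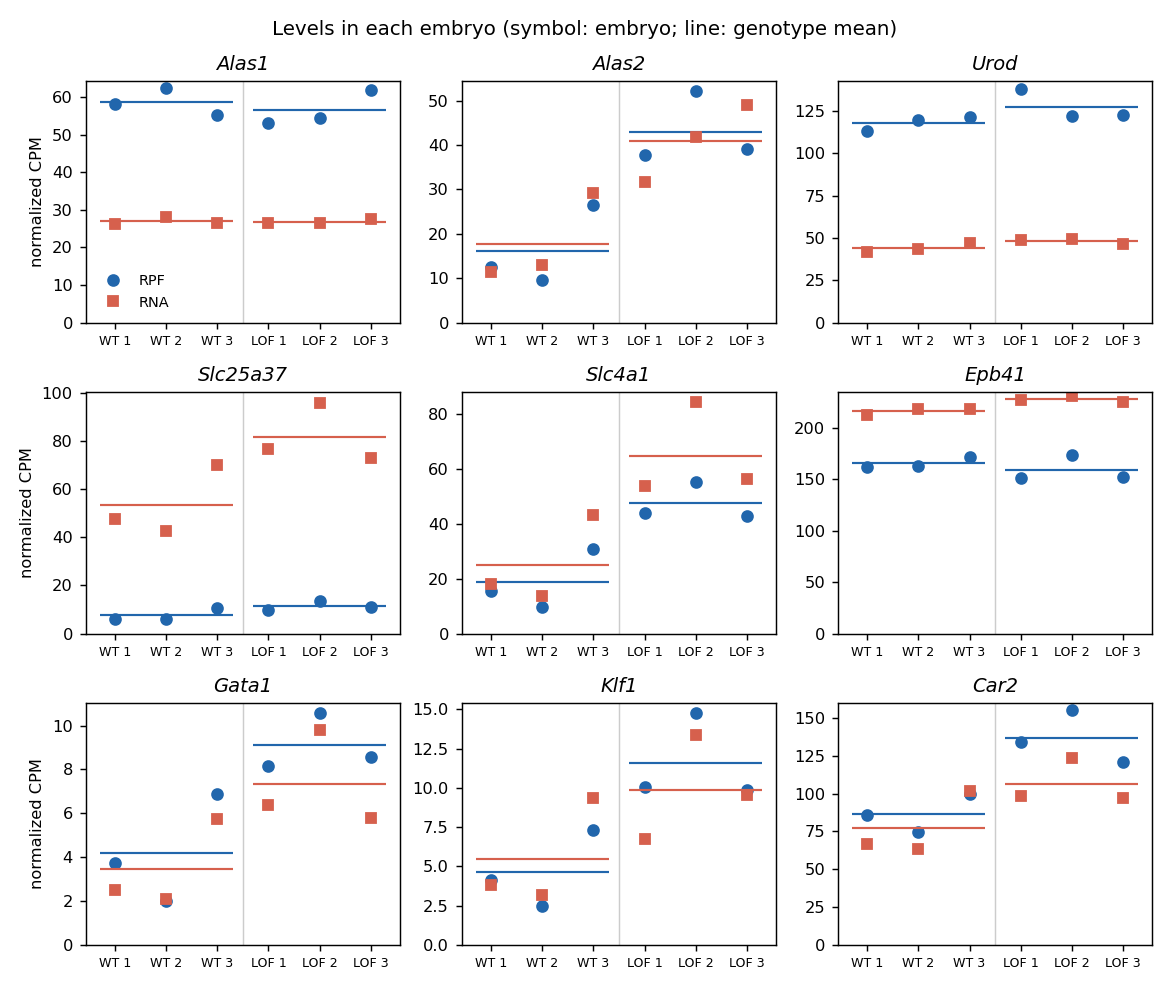
Normalized CPM in RPF (circles) and RNA (squares) for 9 genes in each of the 6 embryos, with lines at the genotype means; axes start at 0. Alas2, Slc4a1, Gata1 and Klf1 are lowest in WT 1 and 2, higher in WT 3 and higher again in RPF in every LOF/LOF embryo, while Alas1 and Epb41 are near level.

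Among the carriers of the mitochondrial inner membrane, the iron importer mitoferrin (Slc25a37, chromosome 14 from 69241848 to 69285112) had RNA levels of 47.5, 42.7 and 69.8 CPM in WT and 76.5, 95.7 and 73.0 CPM in LOF/LOF. The log2 fold change of 0.62 ± 0.17 had an FDR of 0.0867. In RPF its levels were 6.03, 6.09 and 10.5 CPM in WT and 9.91, 13.7 and 11.03 CPM in LOF/LOF, with WT 3 inside the LOF/LOF range and a change of the same size, 0.62 ± 0.22, that was not called. Abcb10, a transporter that interacts with mitoferrin, had RPF levels of 18.4, 16.7 and 24.4 CPM in WT and 24.3, 39.3 and 27.0 CPM in LOF/LOF (0.61 ± 0.19, FDR 0.175), and RNA levels of 44.5 to 62.9 and 56.4 to 79.9 CPM.

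Slc25a38, a glycine carrier, and Slc25a39, a glutathione carrier, were not higher. Slc25a38 had log2 fold changes of 0.01 ± 0.15 in RPF and -0.13 ± 0.09 in RNA. Slc25a39 had RPF levels of 21.3, 21.7 and 27.1 CPM in WT and 15.2, 23.3 and 19.3 CPM in LOF/LOF, a change of -0.27 ± 0.16, while its RNA levels ran from 98.4 to 115.1 CPM over all embryos. These groups overlapped, and neither gene was called.

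The membrane group held 4 of the 7 RPF calls. Slc4a1 encodes band 3, the anion exchanger that anchors the membrane skeleton (chromosome 11 from 102348824 to 102365280, 20 exons). Its RPF levels were 15.6, 9.60 and 30.8 CPM in WT and 44.0, 55.4 and 43.0 CPM in LOF/LOF, and its RNA levels 17.9, 13.6 and 43.4 CPM in WT and 53.9, 84.3 and 56.5 CPM in LOF/LOF. The groups did not overlap, and the log2 fold changes were 1.34 ± 0.29 in RPF (FDR 0.0679) and 1.36 ± 0.35 in RNA (FDR 0.0776).

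Ank1, the ankyrin that ties band 3 to spectrin (chromosome 8 from 22975136 to 23148307), had RPF levels of 9.42, 6.44 and 20.0 CPM in WT and 27.3, 36.7 and 24.7 CPM in LOF/LOF. Its RNA levels were 8.35, 4.22 and 12.5 CPM in WT and 14.2, 24.5 and 17.3 CPM in LOF/LOF. It was higher by 1.30 ± 0.31 in RPF (FDR 0.0867) and by 1.19 ± 0.33 in RNA (FDR 0.0975), again with no overlap. Epb42, protein 4.2, which binds both (chromosome 2 from 121017891 to 121037072), had RPF levels of 3.29, 1.40 and 5.32 CPM in WT and 7.43, 13.4 and 7.32 CPM in LOF/LOF (1.47 ± 0.36, FDR 0.0931), a call that was lost with a filter of 2 CPM. Its RNA levels of 2.48, 1.88 and 5.64 CPM in WT and 6.72, 10.3 and 6.33 CPM in LOF/LOF did not overlap either, but the change of 1.22 ± 0.35 missed the threshold with an FDR of 0.108.

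Rhag, the Rh-associated glycoprotein (chromosome 17 from 40811126 to 40840754), had RPF levels of 2.83, 2.46 and 5.21 CPM in WT and 7.14, 10.7 and 7.89 CPM in LOF/LOF, higher by 1.29 ± 0.27 with an FDR of 0.0572. Its RNA levels of 1.47, 0.959 and 2.55 CPM in WT and 2.41, 4.03 and 3.32 CPM in LOF/LOF overlapped through WT 3 and LOF/LOF 1, and the change of 0.97 ± 0.34 had an FDR of 0.183. The low level of Rhag meant 13 to 80 RNA reads per library.

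Epb41, protein 4.1, is used by many cell types and differed from its partners (chromosome 4 from 131923429 to 132072097). Its RPF levels were 162.2, 162.2 and 171.3 CPM in WT and 151.1, 173.0 and 152.3 CPM in LOF/LOF, and its RNA levels 212.5, 218.4 and 217.7 CPM in WT and 227.0, 230.4 and 225.1 CPM in LOF/LOF. The RNA groups did not overlap, but the difference was 0.07 ± 0.04 and was not called, and the RPF value was -0.06 ± 0.07. Sptb, the beta chain of spectrin, had 0.88 ± 0.27 in RPF and 0.77 ± 0.24 in RNA, and the glycophorin gene Gypc had 0.70 ± 0.38 and 0.66 ± 0.22. The blood group genes Rhd, Kel and Icam4 were near the filter: Kel had 1 to 20 RPF reads per library and Icam4 3 to 17, and Kel, Icam4 and Trim10 were below 0.75 CPM in WT 1 and WT 2 but not in WT 3. Their RPF fold changes, 0.81 ± 0.30 for Rhd, 1.48 ± 0.57 for Kel and 1.18 ± 0.48 for Icam4, were not called.

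Klf1, a zinc finger activator of red cell genes (chromosome 8 from 84901928 to 84905291), was the transcription factor called. Its RPF levels were 4.11, 2.46 and 7.30 CPM in WT and 10.1, 14.8 and 9.89 CPM in LOF/LOF, higher by 1.31 ± 0.30 with an FDR of 0.0791. Its RNA levels were 3.84, 3.18 and 9.35 CPM in WT and 6.77, 13.3 and 9.54 CPM in LOF/LOF. In RNA, WT 3 lay above LOF/LOF 1, and the change of 0.83 ± 0.37 had an FDR of 0.296. Gata1, the master regulator of the lineage (chromosome X from 7959260 to 7967910), had RPF levels of 3.75, 1.99 and 6.88 CPM in WT and 8.16, 10.6 and 8.56 CPM in LOF/LOF, and RNA levels of 2.48, 2.11 and 5.73 CPM in WT and 6.36, 9.82 and 5.79 CPM in LOF/LOF. The groups did not overlap in either, though in RNA the gap from WT 3 to LOF/LOF 3 was small. The log2 fold changes of 1.10 ± 0.31 and 1.08 ± 0.34 had FDRs of 0.145 and 0.143 and were not called.

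Nfe2, a factor of erythroid cells and platelets, had values of 1.28 ± 0.39 in RPF and 1.26 ± 0.45 in RNA, and the repressor Gfi1b 0.59 ± 0.52 and 1.11 ± 0.40. Gfi1b rested on 2 to 32 RPF reads per library. Zfpm1, the Gata1 cofactor FOG1, had RPF levels of 9.05, 8.78 and 10.6 CPM in WT and 8.45, 13.8 and 10.8 CPM in LOF/LOF, and RNA levels of 50.5, 48.9 and 65.9 CPM and of 53.7, 76.1 and 72.1 CPM. These groups overlapped, with 0.23 ± 0.18 in RPF and 0.28 ± 0.14 in RNA. None of these 3 was called.

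Of the remaining red cell genes, carbonic anhydrase 2 (Car2, chromosome 3 from 14886428 to 14900770) had the lowest FDR of the set. Its RPF levels were 85.8, 74.3 and 99.4 CPM in WT and 134.4, 155.1 and 120.9 CPM in LOF/LOF, higher by 0.66 ± 0.12 with an FDR of 0.0365. Its RNA levels were 66.6, 63.6 and 101.8 CPM in WT and 98.7, 123.8 and 97.3 CPM in LOF/LOF, where WT 3 lay above LOF/LOF 1 and 3, and the change of 0.46 ± 0.16 had an FDR of 0.185. Bpgm, which makes 2,3-bisphosphoglycerate, had RPF levels of 16.3, 17.3 and 19.0 CPM in WT and 21.4, 20.7 and 23.9 CPM in LOF/LOF (0.33 ± 0.11, FDR 0.223), and RNA levels of 34.5 to 38.7 and 37.4 to 41.7 CPM. The erythropoietin receptor gene Epor had 0.75 ± 0.38 in RPF and 0.94 ± 0.32 in RNA, Hemgn, a nuclear protein of blood cells, 1.08 ± 0.36 and 1.07 ± 0.45, and Trim10 1.30 ± 0.51 and 1.06 ± 0.36. Trim10 rested on 1 to 10 RPF reads per library. Tspo2 did not pass the filter, with 0 RPF reads in 5 libraries and 2 in LOF/LOF 2, and 0 to 4 RNA reads per library.

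A wider list of 29 erythroid genes, 27 of them tested, gave 2 higher and 1 lower in RPF and 3 higher and 0 lower in RNA. Over all transcripts, 1.05% were called higher and 1.15% lower in RPF, and 1.77% and 3.25% in RNA. In RPF, the water channel Aqp1 was higher by 0.90 ± 0.19 (log2 fold change ± SE, FDR 0.0579) and the tropomodulin Tmod1 by 0.83 ± 0.11 (FDR 0.0161), while the palmitoylated membrane protein Mpp1 fell by 0.46 on the log2 scale (FDR 0.0562). In RNA, Ermap was higher by 1.29 ± 0.28, Dmtn by 0.63 ± 0.14 and Tmod1 by 0.49 ± 0.11. Many genes of the wider list are also used outside red cells, and its median log2 fold change was 0.12 in each kind of library.

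RPF and RNA differences ran side by side. RPF relative to RNA stands for translation efficiency, and its genotype difference was the interaction term of a model over both kinds of library. By this test 0 of the 32 members were called, as were 0% of all transcripts, with 559 at an unadjusted p under 0.05. None of the members had a p under 0.05, and 0 were called under DESeq2 or limma-voom. The median was 0.07 on the log2 scale, beside 0.01 over all transcripts, and 22 of the 32 had a more positive change in RPF than in RNA. This model had no term for embryo and treated the RPF and RNA libraries of each embryo as independent. Its errors therefore also carry differences between embryos that both libraries share. With these errors, the largest departure relative to its error was that of Slc25a39, at -0.33 ± 0.16 with an unadjusted p of 0.0625. For the genes called in RPF only, the interaction was 0.48 ± 0.57 for Klf1, 0.32 ± 0.49 for Rhag, 0.25 ± 0.59 for Epb42 and 0.20 ± 0.23 for Car2. A call in RPF alone thus did not go with a difference in RPF relative to RNA that was detectable with these unpaired errors. The standard errors of the 32 interactions ran from 0.08 for Epb41 to 0.85 for Trim10. With 0 transcripts called, differences of several standard errors were not callable either: Rpl10a itself had -0.42 ± 0.09 and an FDR of 0.974.

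Ratios of RPF to RNA were also taken within each embryo. The log2 ratio for Slc4a1, of normalized RPF over normalized RNA, was -0.20, -0.51 and -0.50 in WT and -0.29, -0.61 and -0.39 in LOF/LOF, while its level spanned 5.77-fold in RPF and 6.19-fold in RNA. For Alas2 it was 0.14, -0.44 and -0.14 in WT and 0.25, 0.32 and -0.33 in LOF/LOF, with overlapping groups, and for Alas1 it stayed between 1.00 and 1.16. Every LOF/LOF ratio was above every WT ratio for 3 of the 32 (Abcb10, Icam4 and Bpgm) and below for 0, where 6.83% of all transcripts had every LOF/LOF ratio above. For Abcb10 the ratios were -1.496, -1.41 and -1.37 in WT and -1.21, -1.02 and -1.31 in LOF/LOF, and for Bpgm WT 2 at -0.994 and LOF/LOF 2 at -0.993 all but touched. Slc25a37, with ratios between -2.98 and -2.73, and Zfpm1, between -2.73 and -2.46, had few RPF for their RNA in every embryo, whereas Urod lay between 1.31 and 1.49. RPF were counted in the coding sequence and RNA over the whole transcript, so these ratios also carry each gene's length of coding sequence.

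**Figure D3:**
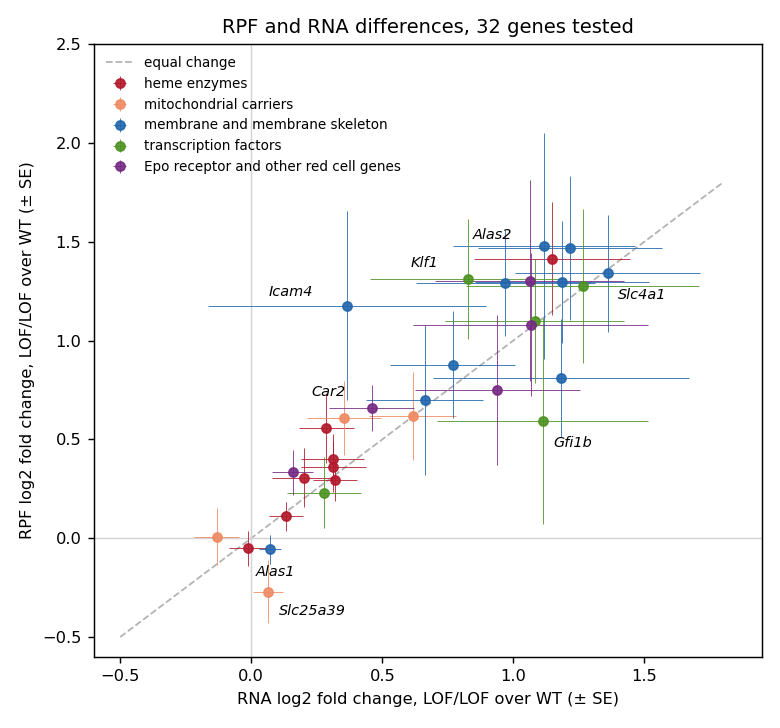
RPF log2 fold change (vertical) against RNA log2 fold change (horizontal) of LOF/LOF over WT for the 32 genes tested, with standard errors as bars and a dashed line of equal change. The points lie along the line from Slc25a39 and Alas1 at the lower left to Alas2 and Slc4a1 at the upper right, and 22 of 32 are above it.

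Levels were compared between genes per kilobase. In RPF per kilobase of counted coding sequence, the order in WT was Car2 at 120 CPM, Urod at 113.5, Alad at 84.5, Epb41 at 65.7, Cpox at 51.9 and Alas1 at 31.4. Alas2 was 14th of 33 at 9.46 in WT and stood at 25.3 in LOF/LOF, near the 30.3 of Alas1 there. In RNA per kilobase of transcript, Alas2 at 8.72 and Alas1 at 7.93 were close in WT, and Alas2 at 20.0 was above Alas1 at 7.90 in LOF/LOF. At the lower end, RPF levels in WT were 1.10 CPM per kilobase for Rhd, 0.850 for Icam4, 0.312 for Trim10, 0.295 for Kel and 0 for Tspo2.

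The embryos formed a graded order that the genotypes only partly followed. Of the 32 genes, 19 in RPF and 18 in RNA were lowest in WT 2 and highest in LOF/LOF 2, an order chosen after the values were seen that held for 2.79% and 2.39% of all transcripts. WT 3 was the highest WT embryo for 30 of the 32 in each kind of library, and stood at more than 1.5 times the next WT embryo for 18 in RPF and 16 in RNA. The highest embryo was at more than 2 times the lowest for 21 genes in RPF and 18 in RNA, and under 1.5 times for 5 and 8, among them Alas1, Urod and Epb41 in both. Without WT 3 the median log2 fold change was 1.08 in RPF and 1.07 in RNA, and without WT 2 it was 0.52 and 0.48. With the 4 embryos that have Y-linked reads alone (WT 1, 2 and 3 and LOF/LOF 2, whose spread is assumed to be that of the others), the medians were 1.01 and 0.86, with 17 members called in RPF and 0 in RNA, where 268 and 39 of all transcripts were called higher.

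The same order was seen in the embryonic globins, which are not members. Of these globins, 1 of 3 (Hbb-y) was called higher in RPF and 0 in RNA, where 1.05% and 1.77% of all transcripts were. The globin sums in RPF were 1357.5, 819.9 and 2763 CPM in WT and 3481, 5679.5 and 3443.5 CPM in LOF/LOF, and in RNA 647, 379 and 1637.5 CPM in WT and 1462, 2455 and 1724 CPM in LOF/LOF. Members were therefore also expressed per 1000 embryonic globin reads of the same library, a ratio that no scaling between libraries touches. Against a globin span of 6.93-fold in RPF, Klf1 ran only from 2.60 to 3.03 RPF per 1000 globin RPF over the 6 embryos, Ank1 from 6.45 to 7.85, Alas2 from 9.16 to 11.6, Slc4a1 from 9.75 to 12.6, Hemgn from 3.87 to 5.21, Epb42 from 1.71 to 2.42, Gata1 from 1.87 to 2.76, Rhag from 1.89 to 3.00 and Sptb from 6.87 to 13.3. These 9 were the members whose ratio spanned less than 2-fold, as it did for 0.191% of all transcripts. In RNA, with globins spanning 6.48-fold, there were 13 such members, beside 0.199% of all transcripts, and 8 of the 9 were among them. For Slc4a1 the RNA ratio ran from 26.5 to 36.9 per 1000 and for Gata1 from 3.36 to 5.57, and the WT and LOF/LOF values overlapped for both. Sptb in RPF and Klf1 in RNA, although they spanned less than 2-fold, had every LOF/LOF ratio below every WT ratio.

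Other members did not follow the globins. The ratio spanned more than 4-fold for 11 of the 32 genes in each kind of library, where it did for 98.4% of all transcripts in RPF and 99.1% in RNA. Alas1 went from 76.2 per 1000 globin RPF in WT 2 to 9.61 in LOF/LOF 2, Urod from 146 to 21.5, and Epb41 from 198 to 30.5, as a level that differs little between embryos gives when divided by the globins. Over all 32 genes, those that spanned less than 2-fold included, every LOF/LOF ratio was below every WT ratio for 16 in RPF and 3 in RNA, and 0 were above. The same held for 77.2% of all transcripts in RPF and 18% in RNA, so these counts are not particular to the members. The 16 in RPF included all heme enzymes but Alas2 and all 4 carriers. Car2, although called, was in neither group, from 27.3 to 90.7 per 1000 globin RPF.

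**Figure D4:**
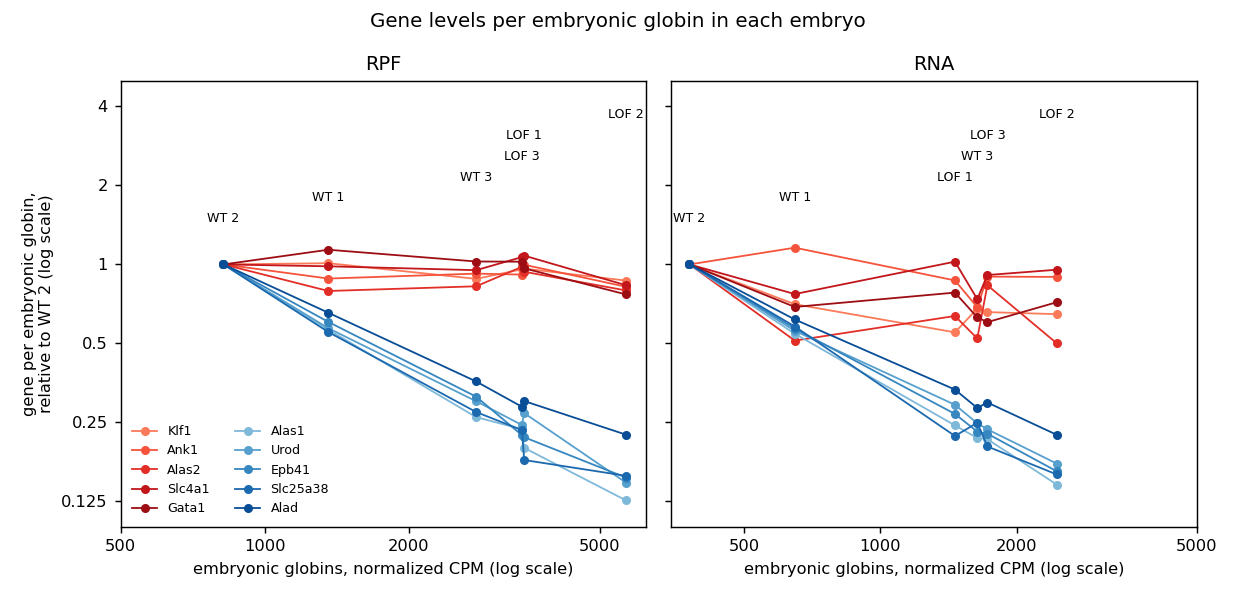
Gene level per embryonic globin of the same library, relative to WT 2 (vertical, log scale), against the summed embryonic globins in normalized CPM (horizontal, log scale) for 10 genes chosen after their values were seen; lines join the 6 embryos in order of globin level. The red lines of Klf1, Ank1, Alas2, Slc4a1 and Gata1 stay near level in RPF, while the blue lines of Alas1, Urod, Epb41, Slc25a38 and Alad decline as globins increase.

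Markers of other cell types moved in part with these results. A list of 16 visceral endoderm genes, which mark the layer of the yolk sac next to the blood islands, had 13 called lower in RPF and all 16 lower in RNA. Over all transcripts, 1.15% were called lower in RPF and 3.25% in RNA. The visceral endoderm sums were 8212 to 10773 CPM in WT and 3513 to 6495 CPM in LOF/LOF in RPF, and 4290 to 5370 and 1616 to 3230 CPM in RNA. Among WT embryos these sums were lowest in WT 3, where the red cell genes were highest, but among LOF/LOF embryos they were highest in LOF/LOF 2, where the red cell genes were highest as well. Endothelial genes, 10 in all, had 0 called, with RPF sums of 561 to 587 CPM in WT and 530 to 699 CPM in LOF/LOF, and the macrophage and megakaryocyte lists, with 5 and 1 of their 6 genes tested, had 0 called, with RPF sums of 5.58 to 12.5 and 10.9 to 14.4 CPM. The platelet gene Gp1bb had 0 RPF reads in every embryo. Of 8 genes of other tissues of the E8.5 embryo, 1 was called higher in each kind of library and 0 lower, where 1.05% of all transcripts were called higher in RPF and 1.77% in RNA. The part of endoderm content, embryo stage, sex or litter in the differences of the red cell genes was not tested.

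**Figure D5:**
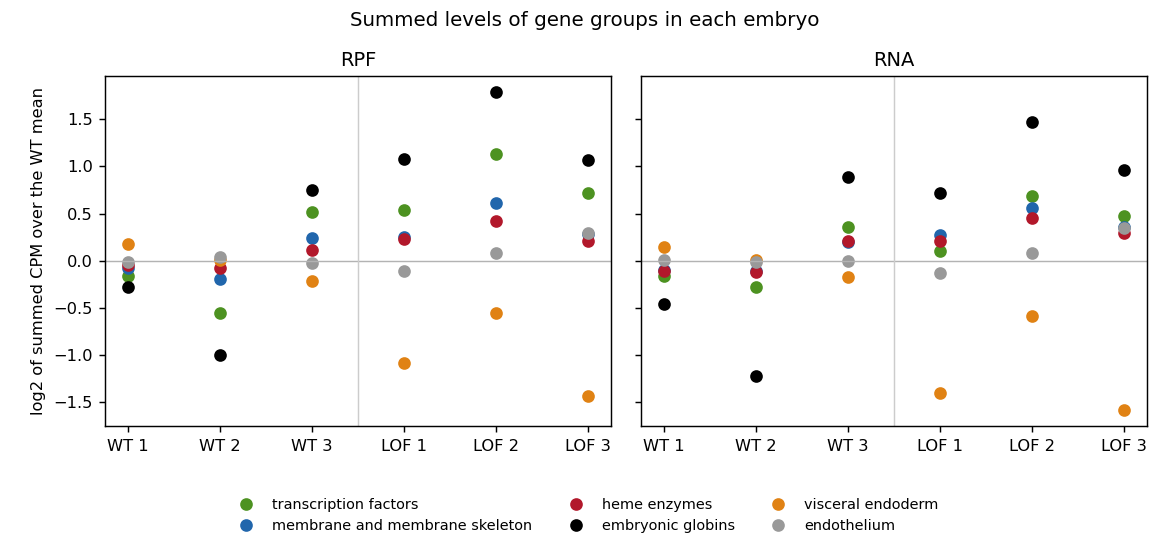
Log2 of the summed normalized CPM of gene groups in each embryo over the WT mean of the group, in RPF (left) and RNA (right). Transcription factors, membrane genes, heme enzymes and embryonic globins are lowest in WT 2 and highest in LOF/LOF 2, and visceral endoderm genes are lower in all LOF/LOF embryos.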

How the data were processed

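Ribosome profiling (RPF) and RNA-seq libraries were made from the same 6 whole E8.5 embryos, 3 WT and 3 LOF/LOF. The deposited values are whole-number read counts per transcript, which the authors made with cutadapt, FASTX-Toolkit, UMI-tools and bowtie2 on GENCODE VM20 canonical transcripts of GRCm38. Duplicates were removed by molecular identifier, RPF were assigned by A site to the coding sequence without its first 15 and last 5 codons, and RNA reads were counted over the entire transcript. With 1 transcript per gene, isoforms could not be told apart.

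Transcripts above 0.75 CPM in at least 3 RPF libraries were kept (12576 of 22467). RPF and RNA were each tested for genotype with edgeR 4.0.16 (quasi-likelihood, TMM, R 4.3.3) and adjusted by Benjamini-Hochberg over all of them, with a threshold of 0.1, and RPF relative to RNA was the interaction of genotype and library over 12 libraries. Levels are TMM-normalized CPM. Code was tested on simulated data. The authors used voom, limma and surrogate variables, and these (limma 3.58.1, sva 3.50.0, 2 surrogate variables) with DESeq2 1.42.0, other scaling and filters, a Y-linked covariate and left-out embryos were alternatives. Libraries of 1 embryo deviated together (r = 0.191 to 0.403). With a block for embryo, 0 transcripts were called in RPF relative to RNA, as without it, so the calls do not show whether this pairing matters.

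The members and gene lists were chosen with earlier results of these data known. In the lists of genes beside the members, 2 genes are not reported here and were left out of the counts. Values per embryo were given for members called in any measure, Alas1, Alas2, Gata1, Klf1 and the 2 members of each group with the highest mean RPF level. Counts limit low genes, and depth is given with the results.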

Additional observations from a re-analysis of the deposited data

How the results depend on the processing

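The 7 members called in RPF kept a positive RPF change, and the 5 called in RNA a positive RNA change, under every alternative run. In RPF, where 7 members were called, there were 8 with limma-voom, 7 with DESeq2 (5 of them shared), 23 with surrogate variables, 12 with no CPM filter, 6 above 2 CPM (without Epb42), 1 with the Y-linked covariate, 17 with the embryos that have Y-linked reads alone, an alternative added after seeing the data, and 0 to 13 when leaving out 1 embryo. In RNA, where 5 were called, there were 8 with limma-voom, 4 with DESeq2 (1 shared), 2 with surrogate variables (both shared), 15 with no CPM filter, 0 with the Y-linked covariate, 0 with the embryos that have Y-linked reads alone, and 0 to 19 when leaving out 1 embryo. Size factors by RLE and removal of globins left 7 and 5. The median RPF change relative to RNA, 0.07, was 0.13 with surrogate variables, 0.0425 above 2 CPM, and 0.0517 to 0.104 when leaving out 1 embryo. Replicate numbers mark different embryos in the 2 genotypes (same-number r = -0.1 to 0.0819). A replicate block on these numbers gave 8 calls in RPF (7 shared), 4 in RNA (2 shared) and 0 in RPF relative to RNA. Calls over all transcripts moved too: those called higher in RPF, 132 in the report, were 640 with surrogate variables, 199 with no CPM filter, 18 with the Y-linked covariate and 268 with the embryos that have Y-linked reads, and those in RNA, 222 in the report, were 165, 304, 22 and 39. The causes of these differences were not tested. Kel, Icam4, Gfi1b and Trim10 rested on few RPF reads.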
